A study of Solanum chacoense with 24 samples.

Results

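Leaves of 2 genotypes of the wild potato relative Solanum chacoense, labelled USDA8380-1 and EE501F2_093, were compared while Colorado potato beetles fed on them. The comparison used the 8 libraries of beetle cages harvested 24 and 48 h after beetle placement, out of 24 libraries in the series, chosen by their labels. There were 4 libraries per genotype, 2 at each hour. USDA8380-1 was compared with EE501F2_093, with the hour as a covariate, to ask which genes are read at different levels in leaves exposed to the same herbivore. All plants were raised from in vitro plantlets and were 15 weeks old when 50 adult beetles were put into the treatment cages. Of the 6 plants of each genotype, housed 2 to a cage, those of 2 cages received beetles and those of 1 cage did not. The other 16 libraries came from beetle cages before placement (4) and from control cages at 0, 24 and 48 h (12). Each library pooled fully expanded leaves of 1 genotype and arm. The harvests of a genotype therefore share plants and cages. The labels give no plant or cage for a library, and every test takes libraries as independent. The p-values measure the spread between these pooled libraries. The beetles and the cage that held them cannot be told apart, since no cage held both arms. Nor can genotype be told apart from its cages and plants, or from how much of it was eaten. With beetles this is 2 cages against 2, and without beetles 1 cage of 2 plants against 1.

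Wild potatoes defend their foliage with steroidal glycoalkaloids, with glandular hairs and with proteins that hamper insect digestion, many of which are made under the control of the wound hormone jasmonate. Solanum chacoense is known for accessions whose leaves hold leptines, acetylated glycoalkaloids that deter the Colorado potato beetle. Chewing beetles wound the leaf and also leave oral secretions on it, and both change the transcription of leaf cells. No source used here pairs the gene identifiers with names or products. The genes are therefore given by identifier, with the chromosome that the 2 digits after DM encode, and nothing is said of their function. For the same reason the labelled tissue could not be checked against leaf markers.

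The 8 libraries held 31092357 to 42282891 counts on genes. Library totals were 35536000 ± 2220000 counts in USDA8380-1 and 34642000 ± 5250000 in EE501F2_093 (SD, n = 4; exact permutation test of 4 against 4 libraries, two-sided p = 0.771). The number of genes with at least 1 count was 25248 to 25671 in USDA8380-1 and 25778 to 26097 in EE501F2_093. These ranges did not overlap (exact two-sided permutation p = 0.0286, the smallest that 4 against 4 can give). After adjustment over the 6 library measures tested, that exact p was 0.172. For genes of at least 1 CPM (counts scaled to a common library size) the means were 19097 ± 40.7 and 19160 ± 327 (SD, n = 4; exact permutation p = 0.714). The percentage of reads outside genes was 9.68 ± 0.829 and 9.78 ± 1.31 (SD, n = 4; exact permutation p = 0.943). Whether reads of both genotypes align equally well to every gene was not tested, so a gap in counts need not be a gap in expression. In whole-leaf RNA, fewer cells of a type and less RNA per cell cannot be told apart.

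Genes that separate the genotypes in the other libraries served to check the labels. There were 22 genes with at least 2 CPM in every other EE501F2_093 library and under 0.05 CPM in every other USDA8380-1 library, leaving aside the 2 USDA8380-1 libraries that stand apart in the series (beetle 0 h replicate 3, which is shallow, and control 24 h replicate 2). Their summed level was 120 to 170 CPM in the 4 EE501F2_093 beetle libraries and 0.0707 to 1.09 CPM in the 4 USDA8380-1 ones. The reverse rule gave 2 genes, at 6.24 to 17.1 CPM in USDA8380-1 and at most 0.0639 CPM in EE501F2_093. No EE501F2_093 library was left aside under either rule, so the 22 and 2 genes are not to be compared. All 8 libraries matched their labelled genotype.

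Genotype was the main axis of variation in leaves under attack. The leading principal component held 53.4% of the variance and placed the USDA8380-1 libraries at -85.5 to -74.2 and the EE501F2_093 libraries at 63.0 to 99.3. Of the total sum of squares of log2 CPM, genotype took 52.5%, hour 4.95%, the combination of genotype and hour 8.69% and replicates 33.8%. The second component (14.1%) set USDA8380-1 24 h replicate 2 at -94.2, away from its replicate at 39.5. Across genes, replicates correlated at r = 0.928 to 0.958, libraries of a genotype at different hours at 0.934 to 0.978, and libraries of different genotypes at the same hour at 0.847 to 0.906. Replicates were thus no closer to each other than to the other harvest of their genotype. The biological coefficient of variation was 0.388 among the USDA8380-1 libraries and 0.358 among the EE501F2_093 libraries.

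**Figure D1:**
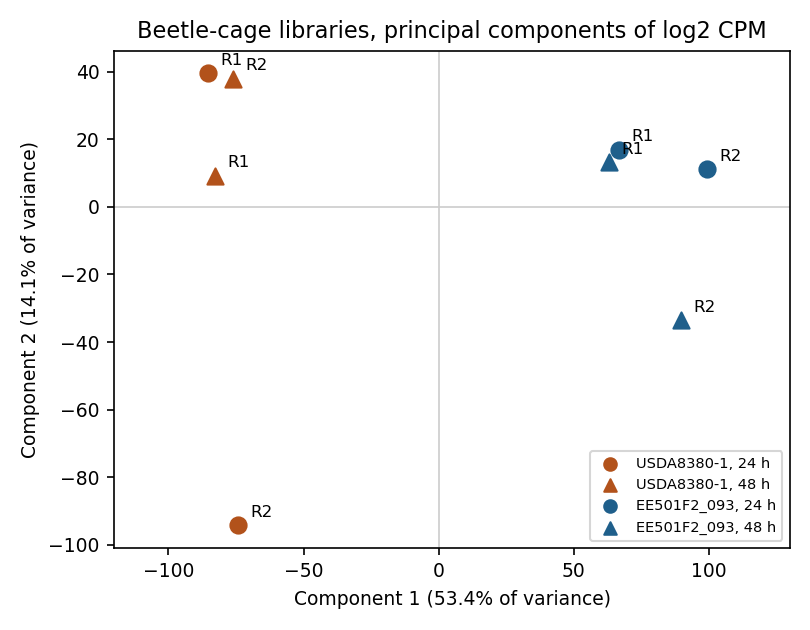
First and second principal components of log2 CPM in the 8 beetle-cage libraries, with colour for genotype, circles for 24 h, triangles for 48 h and the replicate number beside each point. The genotypes lie on opposite sides of the first component, and USDA8380-1 24 h replicate 2 lies lowest on the second, at -94.2.

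Under beetle feeding, edgeR called a difference between USDA8380-1 and EE501F2_093 at 2236 of the 22152 genes (10.1%) that entered its quasi-likelihood test at a Benjamini-Hochberg adjusted p under 0.05. Of these, 1028 genes (4.64% of those tested) were higher in USDA8380-1 and 1208 (5.45%) were lower. The median absolute log2 fold change was 1.92 among the called genes and 0.355 over all genes tested. Calling selects genes with large gaps in these same libraries, so that contrast is no result. By at least 1 on the log2 scale differed 1937 of the called genes. A log2 gap of 1 to 2 was found for 869 called genes, 2 to 3 for 440, 3 to 5 for 332 and at least 5 for 296. In the last class 102 genes were higher in USDA8380-1 and 194 were lower. At an unadjusted p under 0.05 stood 5509 genes, 24.9% of those tested.

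The libraries of the genotypes did not overlap for 2183 of the 2236 called genes, beside 19.7% of all genes tested. The calls were made on these same libraries, so this lends them no support. At least 1 CPM in each of the 8 libraries was reached by 1164 of the called genes (539 higher and 625 lower in USDA8380-1), with a median absolute log2 fold change of 1.31. They were 6.93% of the 16792 tested genes at that level, beside 10.1% of all genes tested. Genes called higher in USDA8380-1 took 2.80 to 3.10% of all counts in USDA8380-1 libraries and 0.807 to 0.987% in EE501F2_093 libraries. Genes called lower took 1.10 to 1.35% and 3.67 to 5.16%. The called genes thus together held a small share of the leaf's reads, and genes not called may differ as well. The number of calls was 1329 without USDA8380-1 48 h replicate 2 and 1445 without EE501F2_093 24 h replicate 2, while leaving out any of the 6 others gave 1497 to 2285. DESeq2 called 4353 genes, and 729 passed a test against a minimum absolute log2 fold change of 1.

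**Figure D2:**
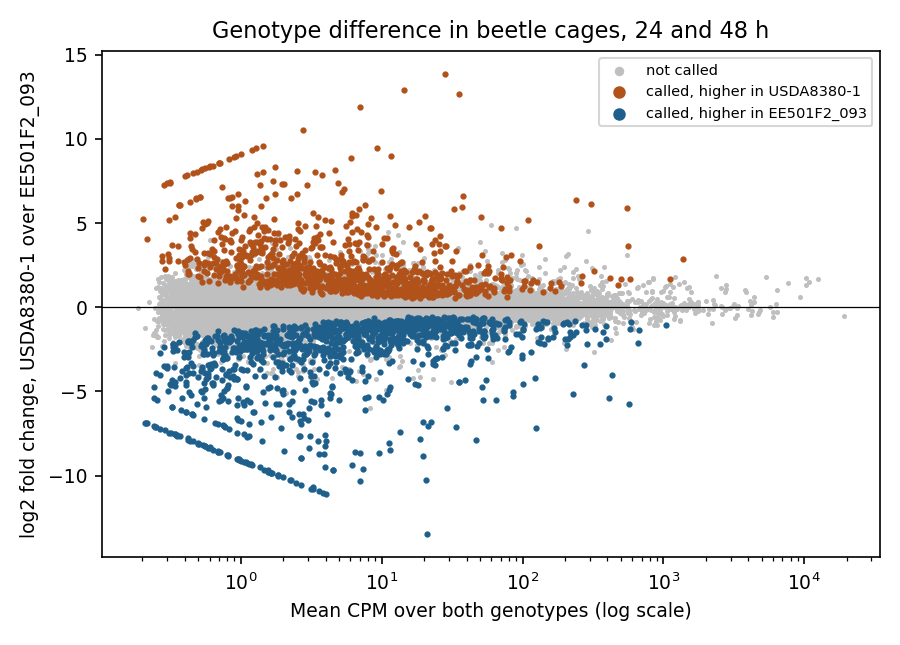
log2 fold change of USDA8380-1 over EE501F2_093 in beetle cages against the mean CPM of both genotypes (log scale), 1 point per gene tested, with called genes coloured by the genotype in which they are higher. The 1028 and 1208 called genes spread over the whole range of levels but thin out at high CPM, and the straight bands at the edges are genes without counts in a genotype, whose fitted values depend on the prior count.

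By mean level over both genotypes, calls were 13.0% of 8057 genes at 1 to 10 CPM, 7.34% of 9969 genes at 10 to 100 CPM and 5.20% of 1595 genes over 100 CPM. Below 1 CPM 375 of 2531 genes were called, but the filter on low counts can admit such genes through the genotype in which they are high, so nothing is read from that share. The highest class held 83 called genes, 28 higher and 55 lower in USDA8380-1, with a median absolute log2 fold change of 1.51. In control cages 82 of these 83 had the same sign, beside 99.0% of all called genes tested there and 77.7% of genes not called. Of the 83, 28 were also called in control cages, beside 1105 of the 2123 called genes tested there. Among the 100 most abundant genes of these leaves 1 was called, against 10.1% of all genes tested, and their median absolute log2 fold change was 0.300 against 0.355 over all genes.

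That abundant gene, Soltu.DM.11G012500.1 on chromosome 11, had the highest mean CPM of the genes called higher in USDA8380-1 by at least 1 on the log2 scale. It had 1920 and 568 CPM in USDA8380-1 at 24 h and 3180 and 4220 CPM at 48 h. EE501F2_093 had 535 and 151 CPM at 24 h and 261 and 215 CPM at 48 h. Every USDA8380-1 library was above every EE501F2_093 library, although the lowest of the former and the highest of the latter nearly met. Means of Soltu.DM.11G012500.1 were 2470 ± 1580 and 291 ± 169 CPM (SD, n = 4), an 8.50-fold ratio, and the log2 fold change was 2.89 (SE 0.69) with an adjusted p of 0.0341 in edgeR. The call for Soltu.DM.11G012500.1 held without USDA8380-1 24 h replicate 2 or EE501F2_093 24 h replicate 1 and ended without each of the other 6 libraries (log2 fold change 2.55 to 2.89, edgeR adjusted p 0.0676 to 0.107). In control cages at 24 and 48 h Soltu.DM.11G012500.1 had 347 to 5250 CPM in USDA8380-1 and 70.9 to 912 CPM in EE501F2_093, so the genotypes overlapped there (log2 fold change 1.73, SE 1.01, edgeR adjusted p = 0.357).

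Among called genes of at least 1 CPM in each of the 8 libraries, Soltu.DM.07G001820.1 on chromosome 7 had the widest gap in favour of USDA8380-1. Its levels in USDA8380-1 were 279 and 534 CPM at 24 h and 793 and 286 CPM at 48 h. In EE501F2_093 they were 7.09 and 3.20 CPM at 24 h and 2.25 and 9.68 CPM at 48 h. The lowest USDA8380-1 library lay far above the highest EE501F2_093 library at both hours. Soltu.DM.07G001820.1 averaged 473 ± 244 and 5.56 ± 3.46 CPM (SD, n = 4), an 85.1-fold ratio, and its log2 fold change was 6.38 (SE 0.67) with an adjusted p of 0.00115 in edgeR. Leaving out any of the 8 libraries kept the log2 fold change between 6.02 and 6.87 and the adjusted p at or under 0.00589. Control cages of the same hours had 24.7 to 218 CPM of Soltu.DM.07G001820.1 in USDA8380-1 and 0.162 to 0.585 CPM in EE501F2_093, below the beetle cages in both genotypes. The genotype gap there was 8.57 on the log2 scale (SE 0.85, edgeR adjusted p = 0.00162). The gap with beetles minus that without was -2.17 (SE 0.93), and its unadjusted p of 0.0355 became 1 after edgeR's adjustment over all genes. The EE501F2_093 beetle-arm libraries at 0 h had 6.29 (replicate 1) and 1.12 CPM (replicate 2) of Soltu.DM.07G001820.1. That replicate 1 also had 25 counts of Soltu.DM.10G017770.2, against at most 3 in any other EE501F2_093 library. It had 7 counts of Soltu.DM.02G006510.1, which no other EE501F2_093 library held. Whether all its reads came from EE501F2_093 was not tested, so its 6.29 CPM need not be expression before beetles.

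In the other direction, Soltu.DM.02G020670.1 on chromosome 2 had the highest mean CPM in EE501F2_093 of the genes called lower in USDA8380-1 by at least 1 on the log2 scale. It had 718 and 549 CPM in USDA8380-1 at 24 h and 690 and 762 CPM at 48 h. EE501F2_093 had 1280 and 1550 CPM at 24 h and 1340 and 1410 CPM at 48 h. The genotypes did not overlap and varied little within themselves. Means were 680 ± 91.8 and 1390 ± 114 CPM (SD, n = 4), and the log2 fold change of Soltu.DM.02G020670.1 was -1.05 (SE 0.25) with an adjusted p of 0.0354 in edgeR. That call ended without any 1 of the 8 libraries (edgeR adjusted p 0.0604 to 0.0935), while the log2 fold change stayed between -1.11 and -0.95. In control cages Soltu.DM.02G020670.1 ranged from 344 to 1340 CPM in USDA8380-1 and from 1470 to 3110 CPM in EE501F2_093.

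Soltu.DM.02G024670.1, also on chromosome 2, had the widest gap in favour of EE501F2_093 among called genes of at least 1 CPM in each of the 8 libraries. USDA8380-1 had 13.9 and 35.6 CPM at 24 h and 6.79 and 30.6 CPM at 48 h. EE501F2_093 had 737 and 1470 CPM at 24 h and 946 and 1310 CPM at 48 h. All EE501F2_093 libraries were high and all USDA8380-1 libraries low. Means of Soltu.DM.02G024670.1 were 21.7 ± 13.6 and 1120 ± 334 CPM (SD, n = 4), a 51.4-fold ratio, and the log2 fold change was -5.72 (SE 0.63) with an adjusted p of 0.00133 in edgeR. Without any 1 library it lay between -6.18 and -5.37, with an adjusted p at or under 0.0065. The control cages were less even. Soltu.DM.02G024670.1 reached 1880 CPM in USDA8380-1 control 48 h replicate 1, against 14.4 to 78.2 CPM in the 3 other USDA8380-1 control libraries of those hours and 374 to 3780 CPM in EE501F2_093 (log2 fold change -2.99, SE 1.74, edgeR adjusted p = 0.353).

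**Figure D3:**
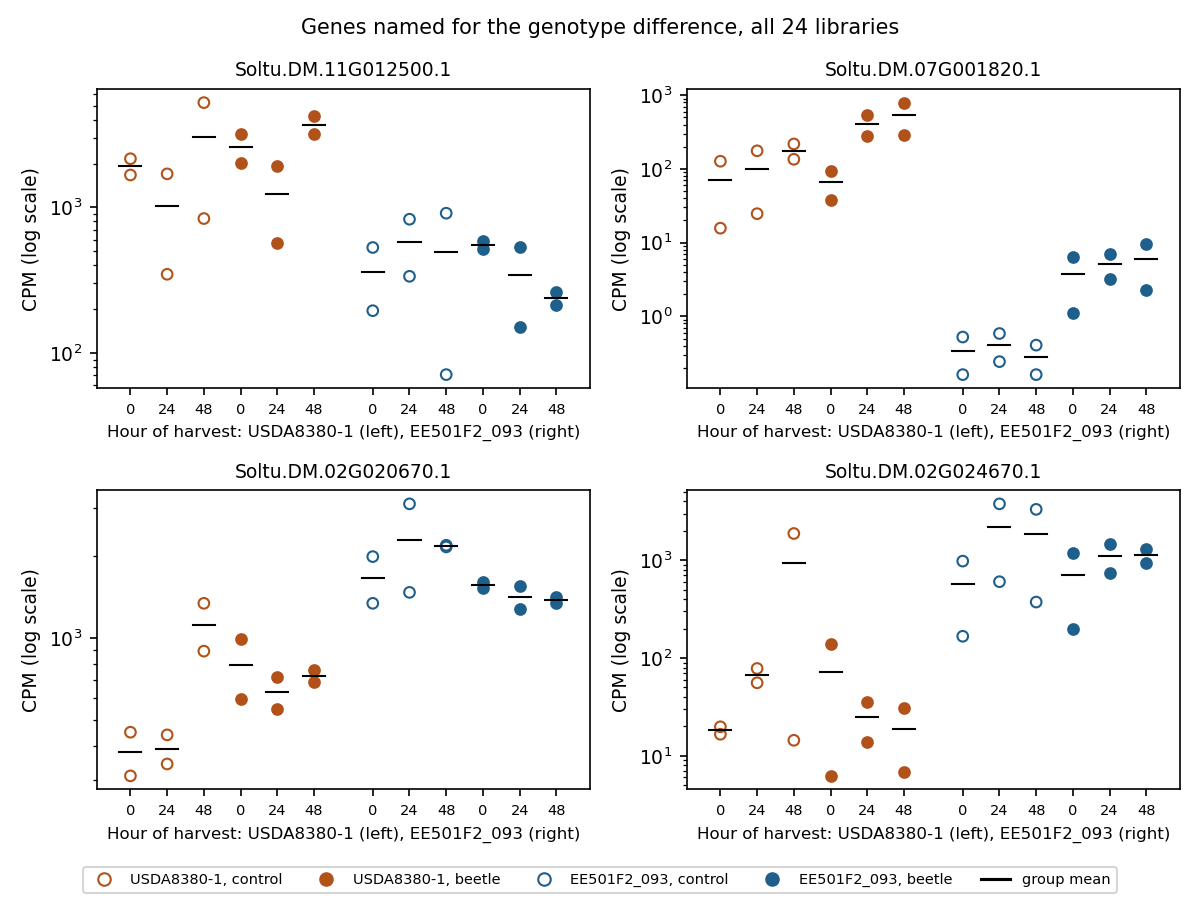
CPM (log scale) of the 4 genes named for the genotype difference in all 24 libraries, USDA8380-1 left and EE501F2_093 right, open points for control cages and filled points for beetle cages at 0, 24 and 48 h, with a line at each group's mean of 2 libraries. In beetle cages at 24 and 48 h the genotypes do not overlap for any of the 4 genes. The genes were chosen from calls on those libraries, so this separation is no result. In control cages of the same hours, not used for the choice, the genotypes overlap for Soltu.DM.11G012500.1 and Soltu.DM.02G024670.1.

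Some genes were read in a single genotype. At least 1 CPM in each USDA8380-1 beetle library and no count in any EE501F2_093 beetle library was found for 9 genes, at a median of 2.87 CPM. The reverse was found for 29 genes, at a median of 3.16 CPM. These genes were chosen for that contrast, so their calls are no result. In other libraries of the genotype without counts, 8 of the 9 and 25 of the 29 had at most 3 counts over the 4 control libraries of 24 and 48 h, which come from other plants. Over the 4 libraries at 0 h, 7 of the 9 and 25 of the 29 had at most 3 counts. No count in any of these 8 other libraries was seen for 3 of the 9 genes and 11 of the 29.

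The largest fitted gaps at single hours belonged to genes at or near 0 counts in a genotype. Soltu.DM.05G019100.1 on chromosome 5 had 40.6 and 35.2 CPM in USDA8380-1 at 24 h and 75.8 and 72.2 CPM at 48 h, and 0 counts in the 4 EE501F2_093 libraries. Set against an assumed floor of 3 counts over the EE501F2_093 group, it was 2580-fold higher in USDA8380-1 (edgeR adjusted p = 0.00174 at 24 h and 0.00208 at 48 h). The exact two-sided 95% interval of the ratio began lower, at 2100, and such intervals cover counting error only. The gene was low in USDA8380-1 at 0 h in both arms and high later in both arms, 1 control library excepted. At 0 h Soltu.DM.05G019100.1 had 0.261 to 4.73 CPM in USDA8380-1, while 3 of the 4 control libraries at 24 and 48 h had 36.6 to 142 CPM and the one that stands apart had 0.111 CPM. Soltu.DM.10G017770.2 on chromosome 10 had 76.7 and 54.4 CPM at 24 h and 94.0 and 58.1 CPM at 48 h in USDA8380-1, against 1 count in all over EE501F2_093. The ratio of summed counts was 9930 with an exact 95% interval of 1780 to 392000 (edgeR adjusted p = 0.00267 at 24 h). Soltu.DM.02G006510.1 on chromosome 2 had 21.4 and 22.8 CPM at 24 h and 47.9 and 22.9 CPM at 48 h in USDA8380-1. It had 0 counts in EE501F2_093, a gap of 1310-fold against the same floor, with an exact interval from 1060 (edgeR adjusted p = 0.00744 at 48 h).

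Soltu.DM.10G006240.1 on chromosome 10 was the counterpart in EE501F2_093, with 43.2 and 37.5 CPM at 24 h and 45.6 and 41.7 CPM at 48 h against 0 counts in USDA8380-1. Set against an assumed floor of 3 counts over the USDA8380-1 group, it was 1840-fold lower there. The exact 95% interval began at 1500 (edgeR adjusted p = 0.00174 at 24 h and 0.00208 at 48 h). EE501F2_093 had between 26.3 and 64.9 CPM of Soltu.DM.10G006240.1 in every other library as well, while USDA8380-1 had 0 to 0.185 CPM in control cages of those hours and 5.12 CPM in the shallow library at 0 h. Soltu.DM.02G021930.1 on chromosome 2 had 15.6 to 25.2 CPM in EE501F2_093 and 6 counts in all in USDA8380-1, with an exact 95% interval of the ratio of 193 to 1150 (edgeR adjusted p = 0.00208 at 48 h). Soltu.DM.12G001210.1 on chromosome 12 was uneven among replicates, at 17.8 and 90.4 CPM at 24 h and 6.29 and 33.8 CPM at 48 h in EE501F2_093, with 19 counts over USDA8380-1. Its 24 h call (edgeR adjusted p = 0.0191) ended without USDA8380-1 24 h replicate 1 (0.0714) or 2 (0.0924), or without EE501F2_093 24 h replicate 2 (0.0612).

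Taken hour by hour, with 2 libraries per genotype, the genotype gap was called at 499 of 23483 genes at 24 h (2.12%). Of these 211 (0.899% of genes tested) were higher and 288 (1.23%) lower in USDA8380-1. At 48 h it was called at 414 genes (1.76%), 164 of them (0.698%) higher and 250 (1.06%) lower. Between these hours 306 genes were shared, 61.3% of the 24 h calls and 73.9% of the 48 h calls, each with the same sign. Of the 499 genes called at 24 h, 496 had the same sign at 48 h, and 62.6% of the genes not called at 24 h did. The hours share plants and cages. Across the 23483 genes the log2 fold changes of the hours correlated at r = 0.735 (Spearman 0.490). Single libraries moved these counts strongly. At 24 h there were 197 calls without USDA8380-1 24 h replicate 2, 216 without EE501F2_093 24 h replicate 1, 74 without EE501F2_093 24 h replicate 2, and 287 and 280 without USDA8380-1 48 h replicates 1 and 2. At 48 h there were 48 and 46 without USDA8380-1 48 h replicates 1 and 2, 267 and 83 without EE501F2_093 48 h replicates 1 and 2, and 249 and 255 without EE501F2_093 24 h replicates 1 and 2. DESeq2 called 2458 and 1857 genes.

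Whether the genotype gap itself changed between the hours was tested as a difference of differences. edgeR called 0 of 23483 genes (0%), although 1263 (5.38%) had an unadjusted p under 0.05. DESeq2 called 8. Among the 2236 genes of the main comparison the median absolute change of the gap was 0.49 on the log2 scale beside a median SE of 0.70, so changes of that size were not detectable with these libraries. The smallest p belonged to Soltu.DM.12G011080.1 on chromosome 12, whose order turned. At 24 h it had 0.948 and 1.21 CPM in USDA8380-1 and 4.84 and 11.2 CPM in EE501F2_093, and at 48 h 8.84 and 11.0 CPM against 2.61 and 2.46 CPM. The change of its gap was 4.87 on the log2 scale (SE 0.62) and did not pass the adjustment in edgeR (adjusted p = 0.762), while DESeq2 gave an adjusted p of 2.31e-07. In control cages Soltu.DM.12G011080.1 was at 126 CPM in the library that stands apart, USDA8380-1 control 24 h replicate 2, and at 0.957 to 3.53 CPM in the other 3 USDA8380-1 libraries of those hours. Soltu.DM.01G002100.1 on chromosome 1 had the smallest p among changes the other way. It had 6.02 and 7.96 CPM in USDA8380-1 against 1.89 and 1.89 CPM in EE501F2_093 at 24 h, and 4.13 and 4.65 CPM against 5.76 and 4.99 CPM at 48 h (change -2.16, SE 0.42, edgeR adjusted p = 0.762). Over both genotypes, a term for the hour called 0 of 22152 genes in edgeR, although 260 (1.17%) had an unadjusted p under 0.05. DESeq2 called 2.

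Control cages of the same hours gave the same measure in other plants, from 1 cage of 2 plants per genotype. There, edgeR called the genotype difference at 1724 of 22039 genes (7.82%), 835 (3.79%) higher and 889 (4.03%) lower in USDA8380-1. DESeq2 called 4201 genes there and the fit of all 24 libraries 4194, and in both more genes were higher than lower (2265 and 1936, 2208 and 1986). The shares that follow rest on the 1724. Calls of beetle and control cages had 1105 genes in common, 49.4% of the beetle-cage calls and 64.1% of the control-cage calls, and all 1105 had the same sign. Of the 2123 beetle-cage calls also tested in control cages, 2101 (99.0%) had the same sign, against 77.7% of genes not called. The remaining 22 genes had a median absolute log2 fold change of 1.81 in beetle cages and 0.206 in control cages. They were chosen by their beetle-cage call and opposite sign, so that contrast is no result. In control cages 1 of the 22 had an unadjusted edgeR p under 0.05. Across 21619 genes the log2 fold changes of both kinds of cage correlated at r = 0.872 (Spearman 0.772). The control-cage libraries were more variable, with a biological coefficient of variation of 0.449 against 0.382 in beetle cages. They include the library that stands apart, without which 2712 genes were called. Leaving out single other libraries gave 1124 (USDA8380-1 24 h replicate 1), 920 (USDA8380-1 48 h replicate 3), 905 and 852 (EE501F2_093 24 h replicates 1 and 2), and 1035 and 911 (EE501F2_093 48 h replicates 1 and 2).

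**Figure D4:**
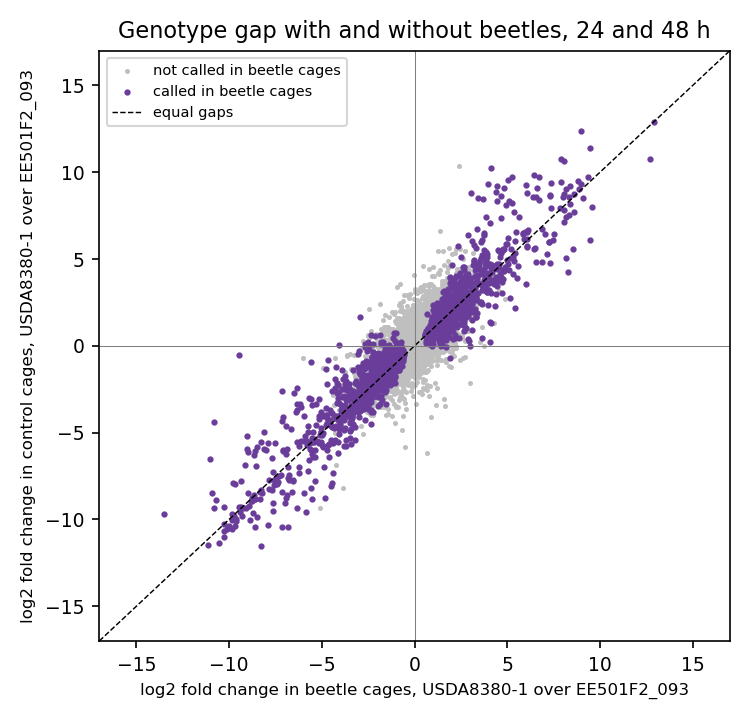
log2 fold change of USDA8380-1 over EE501F2_093 at 24 and 48 h in control cages against that in beetle cages, 1 point per gene tested in both, with genes called in beetle cages in purple and a dashed line of equal gaps. The points follow the line (r = 0.872 across 21619 genes), and 22 of the 2123 called genes shown lie on opposite sides of 0.

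A gap particular to beetle feeding was sought as the genotype difference in beetle cages minus that in control cages, over 16 libraries. edgeR called 0 of 24404 genes (0%), although 562 (2.30%) had an unadjusted p under 0.05. DESeq2 called 13. Among the 2236 genes of the main comparison, 143 had an unadjusted p under 0.05 (6.4%), the median absolute difference was 0.40 on the log2 scale and the median SE 0.62. Without USDA8380-1 beetle 48 h replicate 2, edgeR called 2 genes.

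The gene with the smallest p for a gap shifted towards USDA8380-1 was Soltu.DM.06G034550.2 on chromosome 6. In beetle cages it had 82.1 and 146 CPM at 24 h and 103 and 32.6 CPM at 48 h in USDA8380-1, and 47.6 to 70.9 CPM in EE501F2_093. In control cages it had 8.64 to 20.5 CPM in USDA8380-1 and 58.0 to 93.5 CPM in EE501F2_093. USDA8380-1 leaves thus lay below EE501F2_093 leaves in every control library and overlapped with them in beetle cages. That overlap rested on USDA8380-1 48 h replicate 2, at 32.6 CPM, and at 24 h USDA8380-1 lay above. The difference of gaps was 3.17 (SE 0.56) and did not pass the adjustment in edgeR (adjusted p = 0.557). Leaving out USDA8380-1 beetle 48 h replicate 2 raised it to 3.54, with an adjusted p of 0.0352 in edgeR, and DESeq2 gave an adjusted p of 0.000269. Before beetles, USDA8380-1 already had 34.6 and 25.2 CPM of Soltu.DM.06G034550.2 in the plants assigned to beetles, against 19.8 and 10.9 CPM in the control plants. EE501F2_093 then had 29.4 and 59.2 CPM in the plants assigned to beetles, against 89.1 and 46.2 CPM in the control plants.

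Soltu.DM.03G012340.1 on chromosome 3 had the smallest p in the other direction. In beetle cages it had 0.177 to 0.892 CPM in USDA8380-1 and 2.21 to 6.13 CPM in EE501F2_093, without overlap (log2 fold change -2.92, edgeR adjusted p = 0.00441). In control cages USDA8380-1 had 0.721 to 18.2 CPM and EE501F2_093 0.454 to 3.07 CPM, so the genotypes overlapped. The difference of gaps was -4.58 (SE 0.77), with an adjusted p of 0.510 in edgeR and 1.93e-05 in DESeq2. The highest USDA8380-1 value, 18.2 CPM, was that of control 24 h replicate 1, without which the difference was -3.93.

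Against the beetle-arm libraries before placement, edgeR called the genotype gap at 24 and 48 h to differ at 0 of 24074 genes (0%). An unadjusted edgeR p under 0.05 was reached by 614 genes (2.55%), and DESeq2 called 1 gene. Libraries were not paired by plant, which the labels do not give. This comparison holds the shallow library, USDA8380-1 beetle 0 h replicate 3. Without it edgeR called 0 genes, and it called 26 without USDA8380-1 beetle 0 h replicate 2, when the shallow library was the only one of its group. Of the 2236 genes called under beetles, 2179 (97.5%) had the same sign in the beetle-arm libraries at 0 h, or 2215 (99.1%) without the shallow library, and 2173 (97.2%) did in the control-arm libraries at 0 h. Among genes not called, these shares were 69.5, 75.4 and 67.7%. The smallest p towards USDA8380-1 was that of Soltu.DM.11G025140.1 on chromosome 11, at 24.4 to 31.4 CPM in USDA8380-1 and 21.0 to 32.2 CPM in EE501F2_093 after beetles. Before them it had 9.79 and 8.67 CPM against 21.0 and 21.1 CPM (difference 1.30, SE 0.27, edgeR adjusted p = 1). In USDA8380-1 control cages Soltu.DM.11G025140.1 likewise had 7.51 and 8.44 CPM at 0 h and 18.1 to 74.6 CPM at 24 and 48 h. Towards EE501F2_093 it was Soltu.DM.12G016790.2 on chromosome 12, which had 6.68 to 11.6 CPM in USDA8380-1 and 55.5 to 122 CPM in EE501F2_093 after beetles. Before them it had 13.7 and 19.7 CPM against 21.4 and 35.9 CPM (difference -2.39, SE 0.55, edgeR adjusted p = 1). The genotype difference of Soltu.DM.12G016790.2 under beetles was itself called (log2 fold change -3.21, SE 0.34, edgeR adjusted p = 0.00115), and so was that in control cages (-2.91, SE 0.31, edgeR adjusted p = 0.0022).

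Genes that differed between the genotypes lay on every chromosome. By the chromosome code of the identifiers, the share of tested genes called in beetle cages ran from 7.62% on chromosome 6 and 7.82% on chromosome 7 to 12.8% on chromosome 10 and 12.9% on chromosome 12, beside 10.1% of all genes. In control cages the same chromosomes had 5.34, 6.41, 10.3 and 10.7%, beside 7.82% of all genes. More genes were lower than higher in USDA8380-1 on 9 of the 12 chromosomes, and the reverse held on chromosomes 6, 10 and 11. Whether genes of one chromosome vary independently was not tested, and these shares are a description.

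**Figure D5:**
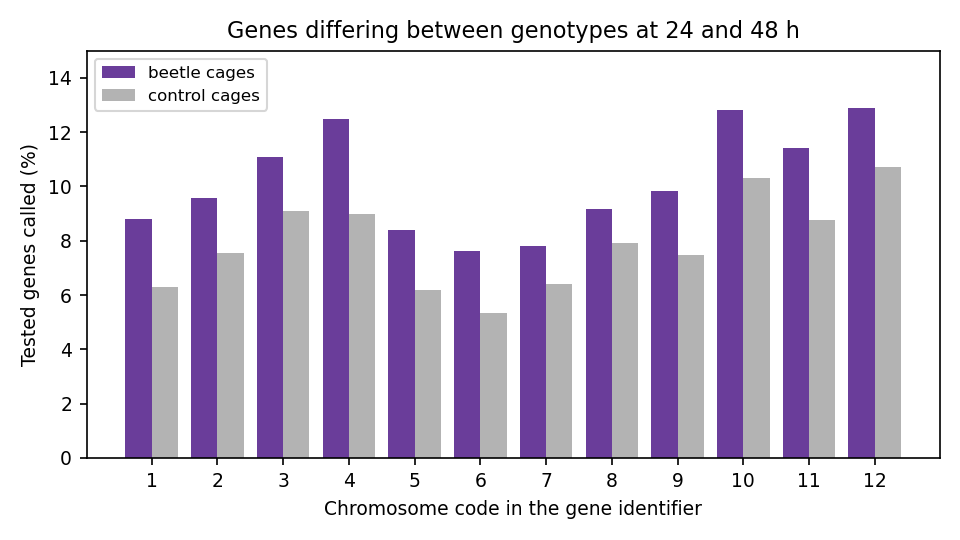
Percentage of tested genes called for the genotype difference at 24 and 48 h, by the chromosome code of the gene identifier, in beetle cages (purple) and control cages (grey). Chromosomes 10 and 12 have the highest shares in both kinds of cage, and chromosome 6 the lowest.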

How the data were processed

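The deposited values are raw counts of reads per gene for 32917 gene identifiers in each library. They come from stranded mRNA libraries read from one end over 50 nt, per the labels' protocols. Trimmomatic 0.35, STAR 2.7.3a, HTSeq and Picard are named in the submitters' processing notes, which hold no parameters here. The genome build is not given in the sources used here. Reads outside genes (median 9.86% of reads) and the other HTSeq summary lines (5 in all) stayed out of library sizes and tests. Genes with near-identical copies may share or lose reads and are uncertain for that reason.

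Genes were filtered with filterByExpr, scaled by TMM and compared by quasi-likelihood tests (edgeR 4.0.16, R 4.3.3) with Benjamini-Hochberg adjustment over all genes tested. The main model held genotype and hour for the 8 libraries. The single hours and the change between them used 4 group means. The comparisons with control cages and with 0 h used interaction terms. CPM are on 1 TMM scale over all 24 libraries. Log2 CPM for principal components used a prior count of 2. Each SE was derived from the fold change and its test statistic. The fit was tested on simulated data. The simulated libraries were independent, and only genes above a minimum mean count were changed. That test therefore says nothing of shared plants and cages or of genes near 0 counts.

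Alternatives were RLE scaling, no filter, DESeq2 1.42.0, a fit of all 24 libraries, a block for the replicate number, a minimum log2 fold change of 1, no hour term, and leaving out each library. The named genes are, per direction in the main comparison, the called gene with an absolute log2 fold change of at least 1 and the highest mean CPM in its higher genotype, and the called gene with the largest gap among those of at least 1 CPM in all 8 libraries. At single hours they are the called genes of at least 5 CPM with the largest gaps, at most 2 per direction. In comparisons without calls they are the gene with the smallest p per direction. No genes of the control-cage comparison are named, which serves as a reference. Comparisons, lists and rules were chosen with earlier results of these data known. The test of the hour, the signs of called genes in the other 16 libraries and the blocks of neighbouring genes were added after the data had been seen. Planned lists by product could not be formed without gene names.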

Additional observations from a re-analysis of the deposited data

Results flagged for a closer look

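For 45 sets of 4 libraries (a genotype in beetle cages at 24 and 48 h, for library measures and named genes), 5 had 1 library far from the other 3. About 1 in 20 sets would show this by chance where values vary smoothly, which a gene with 0 counts in 3 libraries does not. Each set mixes 2 hours.

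USDA8380-1 24 h replicate 1 had 25671 genes with a count, against 25248 to 25263 in the other 3 USDA8380-1 libraries. EE501F2_093 48 h replicate 2 had 0.21% ambiguous reads, against 0.118 to 0.13% in the others, and lay at -33.6 on the second principal component, against 11.2 to 16.9. Soltu.DM.10G017770.2 had 0.0281 CPM (1 count) in EE501F2_093 48 h replicate 1 and 0 counts in the other 3. Soltu.DM.02G006510.1 had 47.9 CPM in USDA8380-1 48 h replicate 1, against 21.4 to 22.9 CPM in the others.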

How the results depend on the processing

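The direction held in all 262 alternatives for single genes, of which 241 also kept their side of the threshold, 17 lost the call and 4 gained it. The losses all came from leaving out single libraries. Counts of calls were less stable. Of 57 alternatives to the 4 counts above 0, 22 stayed within 1.5 times the count reported: 11 of 15 over both hours, 4 of 14 at 24 h, 4 of 14 at 48 h and 3 of 14 in control cages. For the genotype difference under beetles, DESeq2 called 4353 genes and a test against a minimum log2 fold change of 1 called 729, against 2236. At 24 h (499) these gave 2458 and 240, no filter 789 and the 24-library fit 1016. At 48 h (414) they gave 1857 and 236, no filter 650 and the 24-library fit 746. In control cages (1724) they gave 4201 and 622 and the 24-library fit 4194. There the balance of directions turned from 835 higher and 889 lower to 2265 and 1936 with DESeq2 and to 2208 and 1986 with the 24-library fit. DESeq2 called 8 genes for the change between hours, 13 for beetle against control cages and 1 against 0 h, where edgeR called 0. The causes were not tested.

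Leaving out single libraries gave 1329 to 2285 calls over both hours, 74 to 421 at 24 h, 46 to 499 at 48 h, 852 to 2712 in control cages, 0 to 2 for beetle against control cages, 0 to 26 against 0 h and 0 in every fit for the change between hours. Where this left a group with 1 library, that library was assumed to vary like the others.

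The labels do not say whether a replicate number marks shared plants or cages. Deviations of same-numbered libraries from their group means correlated above 0.1 in 4 of 6 pairs of groups (0.103 to 0.163) and at -0.0268 and -0.306 in the others, so the numbers were not taken as pairs. With the replicate block 2224 genes were called over both hours (1967 of them among the 2236), 328 at 24 h, 304 at 48 h and 585 in control cages, and 0 where edgeR had called 0.

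With 4 libraries per genotype, 2 per hour, the median SE of the gap over both hours was 0.236 on the log2 scale for genes of at least 5 CPM. For the difference between beetle and control cages it was 0.373. Shifts near or below these SEs were not detectable, and far larger ones could also be missed after adjustment over all genes. Between beetle and control cages, edgeR did not call the difference of 3.17 (SE 0.56) for Soltu.DM.06G034550.2. Gaps of genes near 0 counts are limited by depth.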

Other observations

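Called genes lay close together in identifier order, a pattern looked at after the data had been seen. Of genes that follow a called gene on the same chromosome, 19.2% were called, against 9.06% after a gene not called. Among 429 pairs of adjacent called genes, 341 (79.5%) had the same direction. Neighbouring copies can share reads, and the part of that was not tested.

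In 438 blocks of 50 consecutive tested genes, the median was 4.5 calls and the range 0 to 20. The block with 20 calls was the first of chromosome 12, with 15 genes higher and 5 lower in USDA8380-1 and a median log2 fold change of 3.53 among the calls. In control cages 13 of its 47 tested genes were called, and 12 of these were called with the same sign in beetle cages. The block with 16 calls was the 29th of 31 on chromosome 11, with 15 higher and 1 lower, and 9 of its 11 control-cage calls were called in beetle cages with the same sign. The 13th block of chromosome 9 leaned the other way, with 1 gene higher and 13 lower in USDA8380-1 and a median log2 fold change of -3.53. All 10 of its control-cage calls were called with the same sign in beetle cages. The 19th block of chromosome 4 had 17 calls split into 9 higher and 8 lower. These blocks were picked for their counts, which are given without a test.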
